A study of Mus musculus with 7 samples.

Results

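Early deep-layer neurons were the cells that carry the deposited cluster label 2 in a Drop-seq study of the mouse embryonic dorsal forebrain. All cells with that label were taken, which gave 1008 cells of 10261 (9.82%) with 2334166 of 27776936 UMIs (unique molecular identifiers, one for each captured mRNA molecule). The study dissociated dorsal forebrain of CD-1 embryos, an outbred strain, and captured single cells at 6 stages from embryonic day 10.5 (E10.5) to E18.5, with E12.5, E14.5 and then E15.5 holding most of the cells of label 2. The embryos carried no named allele or treatment. Each stage was 1 sample, apart from E14.5 with a larger sample of 3235 cells and a smaller one of 507 cells. Whether embryos were pooled in a sample is not said in the labels, so that p-values measure the spread between these samples only, and outside E14.5 a stage and its sample cannot be told apart.

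Deep-layer projection neurons are the first excitatory neurons that the cortical wall makes. Those of layer 5 send axons to the brainstem and spinal cord, those of layer 6 to the thalamus, and the subplate below them holds the earliest-born neurons. Their identities are set by transcription factors that partly repress one another: Fezf2 and Bcl11b (CTIP2) act in subcerebral neurons, and Tbr1 and Sox5 in corticothalamic and subplate neurons.

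Label 2 was found almost entirely between E12.5 and E15.5. E12.5 gave 313 label 2 cells, the larger E14.5 sample 552, the smaller E14.5 sample 49 and E15.5 82. The remaining 12 cells came from E10.5 (3 cells), E16.5 (5 cells) and E18.5 (4 cells). Only sums over at least 20 cells were compared, which left the 4 samples of E12.5 to E15.5, with 996 cells (98.8%). Their label 2 sums held 773243, 1115379, 221632 and 207135 UMIs, in that order. A median label 2 cell held 2024, 1699, 3767 and 1734.5 UMIs in these samples, and 4.02%, 2.34%, 2.72% and 6.96% mitochondrial UMIs. The smaller E14.5 sample was thus the deepest per cell, and E15.5 had the highest mitochondrial share. 4 barcodes occurred in more than 1 library, none of them in a label 2 cell, and 4 label 2 cells (0.397%) were called doublets.

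Label 2 took its largest share of all cells in the larger E14.5 sample. Its share was 0.256% at E10.5 (0.0528 to 0.746, the exact Clopper-Pearson interval at 95%), 11.7% at E12.5 (10.5 to 13.01) and 17.1% in the larger E14.5 sample (15.8 to 18.4). The smaller E14.5 sample had 9.66% (7.24 to 12.6), E15.5 had 8.09% (6.48 to 9.94), E16.5 had 1.29% (0.421 to 2.99) and E18.5 had 0.313% (0.0853 to 0.799). The 2 samples of E14.5 did not overlap in their intervals, which cover counting error only, and the smaller one lay near E15.5. A linear relation of this share with day was not found over 7 samples (Pearson r = -0.19, exact permutation p = 0.677; Spearman rho = -0.18, exact p = 0.698; two-sided). Without the 2 samples farthest from the median day, E10.5 and E18.5, r was -0.66.

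Among the cells of labels 2, 5, 9 and 11, label 2 lost ground to the other neurons at each later stage. Label 2 made up 91.8% of these 4 labels at E12.5 (313 of 341 cells), 67.6% in the larger E14.5 sample, 31.8% in the smaller one, 19.2% at E15.5, 2.92% in the E16.5 sample and 0.584% in the last one. The exact intervals of E16.5 and E18.5 overlapped, those of the other neighbours in this order did not, and the 2 samples of E14.5 differed as well. Over these 6 samples the share fell with day (Pearson r = -0.89, exact permutation p = 0.0139, adjusted over 2 shares 0.0278; Spearman rho = -0.99, exact p = 0.00556, adjusted 0.0111; r = -0.84 without E12.5 and E18.5). With 1 sample left out, r stayed between -0.93 and -0.79, but its adjusted exact p was 0.167 without E12.5, 0.1 without E15.5 and 0.0667 without E16.5 or without E18.5. Label 5 grew from 11 cells at E12.5 (3.23% of the 4 labels) to 450 cells at E18.5 (65.7%). Label 9 grew from 3 cells (0.880%) to 222 (32.4%). Label 11 had most cells in the larger E14.5 sample, the largest of all samples, with 177 cells (21.7%). Its share was higher in the smaller E14.5 sample (34.4%) and at E15.5 (28.5%). Label 2 was chosen as a label of early neurons with its stages known. The direction in which its share changed was thus known beforehand, and the p-values of this share are a description only. In dissociated cells a share cannot tell fewer label 2 cells from more cells of the other labels.

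**Figure D1:**
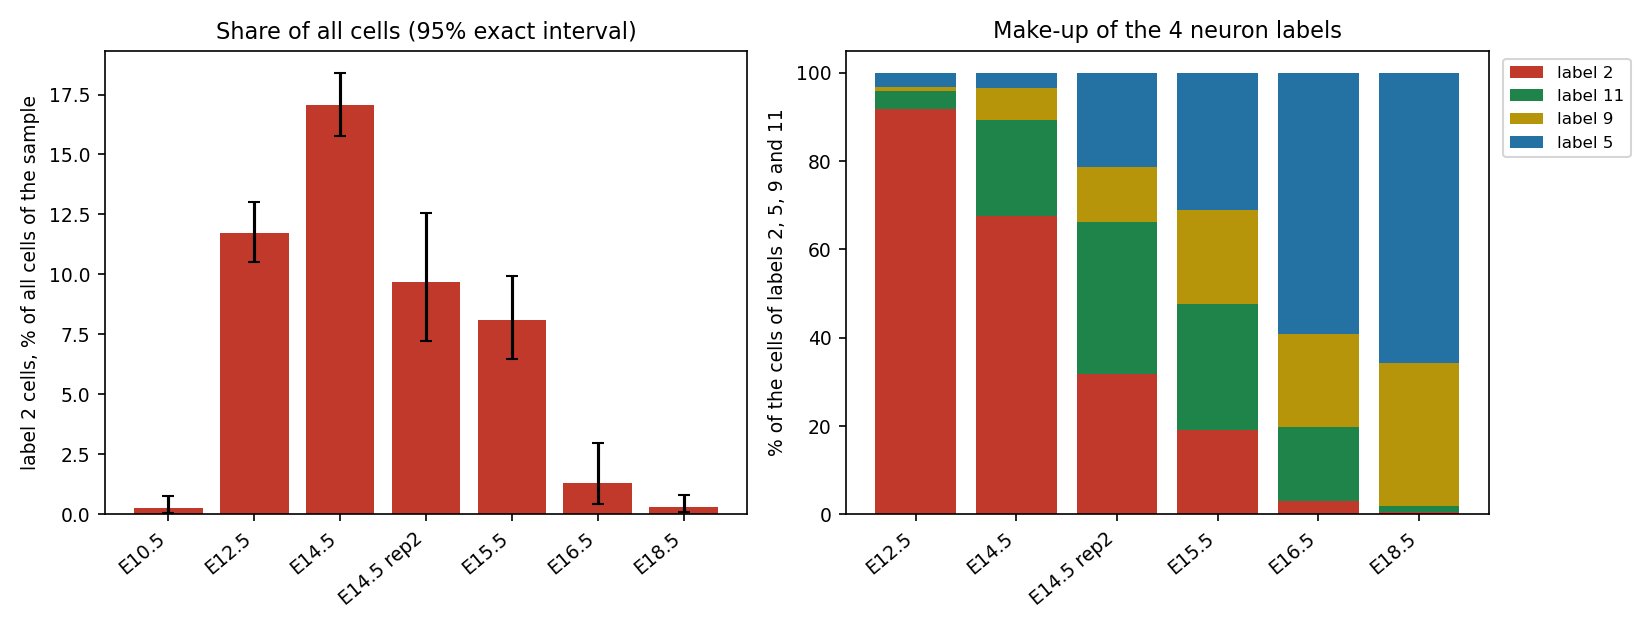
Left, label 2 cells as a percentage of all cells of each sample, with exact 95% intervals, between 0.256% at E10.5 and 17.1% in the larger E14.5 sample. Right, the make-up of labels 2, 5, 9 and 11 in each sample with at least 50 such cells, in which label 2 goes from 91.8% at E12.5 to 0.584% at E18.5.

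The 6 marker genes of label 2 were all present in all 4 samples, and markers of other cell types were low. Neurod6, a transcription factor of excitatory cortical neurons, was at 2905, 3839, 3447 and 3370 UMIs per 1000000 UMIs of the label 2 sum (counts per 1000000, CPM) at E12.5, larger E14.5, smaller E14.5 and E15.5, the order used from here on. The 16 apical progenitor markers summed to between 391 and 738 CPM in label 2, against 11672 to 18353 CPM in the progenitor labels 1, 3, 6, 10 and 12 of the same samples. The 9 intermediate progenitor markers summed to between 179 and 356 CPM, against 4363 to 5346 CPM in labels 4 and 7. The 16 interneuron markers summed to at most 67.6 CPM, with Dlx2 and Lhx6 at 0 in label 2. That highest sum was at E15.5, where Npy alone was at 62.8 CPM, while Npy was at 0 at E12.5 and in both E14.5 samples. The 12 Cajal-Retzius markers summed to at most 66.0 CPM, with Trp73, Lhx1, Lhx5 and Ndnf at 0. Of 12 microglial markers 10 had no UMI in label 2, including C1qa and Cx3cr1, and endothelial markers summed to at most 8.97 CPM. Haemoglobin and other erythroid markers summed to 31.0, 71.7, 94.8 and 53.1 CPM.

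Bcl11b (chr12:107910403-108003602, minus strand; GENCODE annotation of GRCm38), a zinc finger factor of subcerebral neurons, was at 859, 1135, 871 and 1226 CPM in label 2. Sox5 (chr6:143828425-144781977, minus strand), which times deep-layer neuron migration and fate, was at 718, 1203, 1155 and 652 CPM. Cdh13 (chr8:118283733-119324921, plus strand), a cadherin anchored by a lipid, was at 229, 249, 190 and 179 CPM. Bcl11b was lowest at E12.5 and highest at E15.5, whereas Sox5 and Cdh13 kept no order over the stages.

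Kit (chr5:75574916-75656722, plus strand), a receptor tyrosine kinase, was at 154, 99.5, 99.3 and 19.3 CPM. Cabp1 (chr5:115168689-115194381, minus strand), a neuronal calcium sensor, was at 202, 155, 85.7 and 29.0 CPM. Islr2 (chr9:58196297-58204319, minus strand), a membrane protein of growing axons, was at 685, 375, 433 and 261 CPM. Each of these 3 was highest at E12.5 and lowest at E15.5, and none of the 6 markers passed the test of a slope on day described below. The adjusted p of edgeR's quasi-likelihood test was 0.0506 for Islr2 (slope -0.44), 0.0800 for Cabp1 (-0.56) and 0.0847 for Kit (-0.56), and 0.802 or more for the other 3.

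Most of the markers were not highest in label 2 when the neuron labels were set side by side, which is a description because the labels were built from these same counts. Cdh13 was at 561, 374 and 365 CPM in label 11 in the 2 samples of E14.5 and at E15.5, above label 2 each time. Sox5 was at 1429, 1228 and 1080 CPM there and Bcl11b at 1338, 990 and 1415 CPM, again above label 2. Fezf2, which label 2 held at 419, 757, 510 and 594 CPM, was at 1001, 623 and 758 CPM in label 11. Labels 5 and 9 had less Bcl11b than label 2: label 5 had 565, 366 and 304 CPM, and label 9 had 378 CPM in the larger E14.5 sample and 497 CPM at E15.5. Label 0, another label rich in Neurod6, had Cdh13 at only 16.6, 24.3, 16.2 and 18.1 CPM, but its Cabp1 at E12.5, 203 CPM, was level with the 202 CPM of label 2. Cabp1 was highest in label 2 in both E14.5 samples, with 155 and 85.7 CPM against at most 127 and 80.5 CPM in the other 4 labels where these had at least 20 cells, and lowest in label 2 at E15.5.

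**Figure D2:**
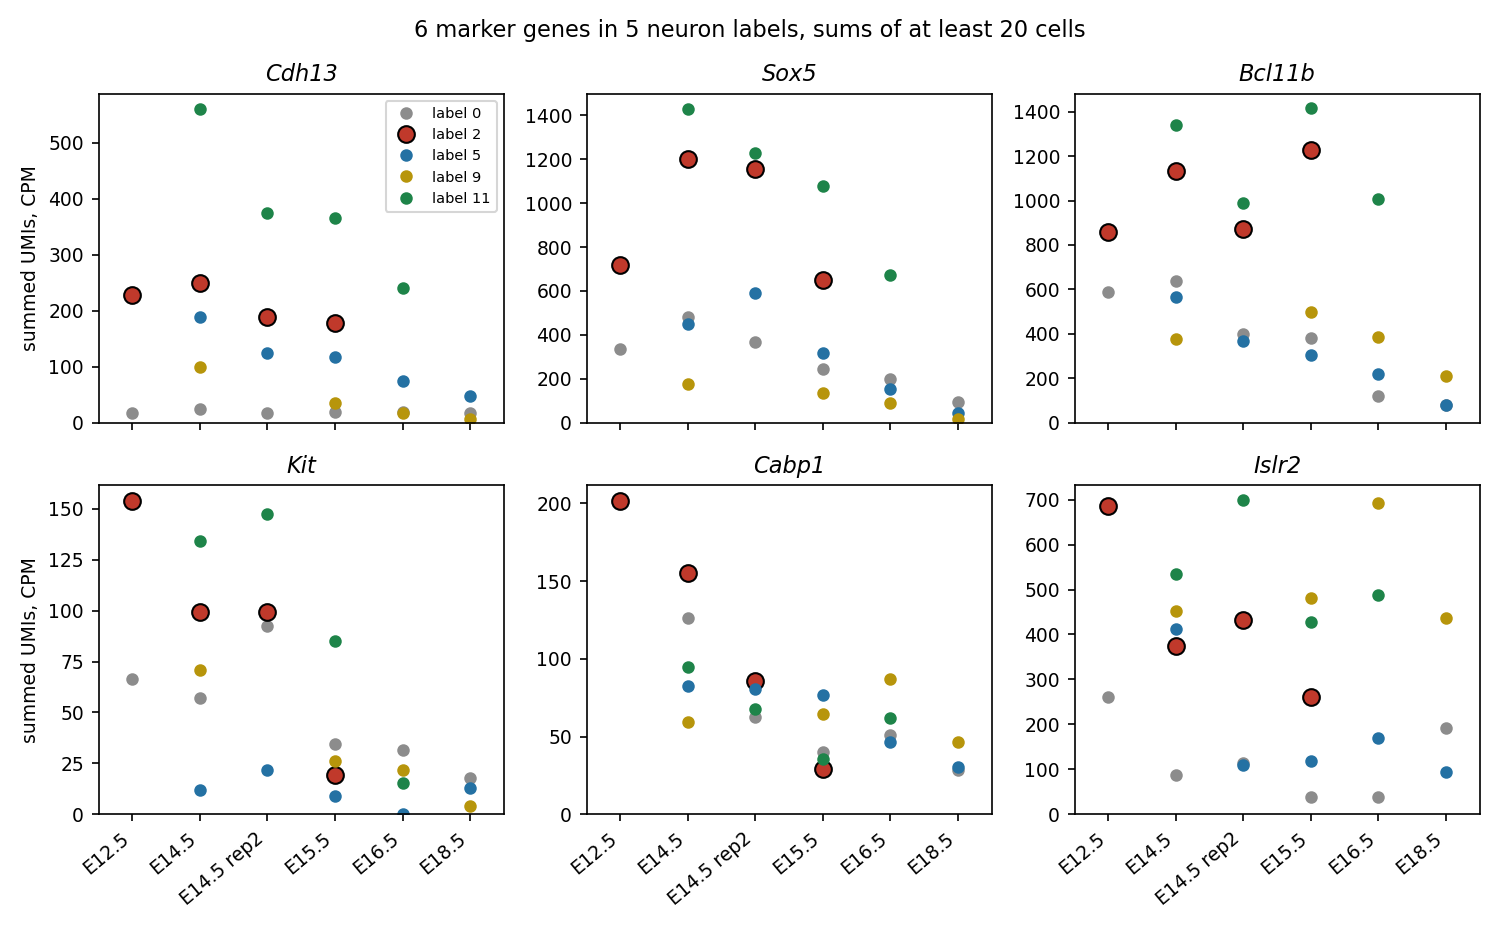
Level in CPM of the 6 markers in summed cells of labels 0, 2, 5, 9 and 11, each point being the sum of at least 20 cells of 1 sample; label 2 has a black outline. Cdh13, Sox5 and Bcl11b lie higher in label 11 than in label 2 in each of the 3 shared samples, while label 0 has at most 24.3 CPM of Cdh13 in the samples of E12.5 to E15.5.

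Almost no gene set label 2 apart from labels 5, 9 and 11 together. Levels were compared within each sample that had at least 20 cells of both labels, as the ratio of CPM with 5 CPM added, over genes with 50 CPM in at least 1 of the sums compared. Of 6118 genes none was at least 2-fold higher in label 2 in all 8 pairs of sample and label, and 1 was lower. With only the first library of each sample (suffix 1), which left 5 pairs in 2 samples, 2 genes were higher and 19 lower. The 1 lower gene over all libraries was Ppp2r2c, a regulatory subunit of a protein phosphatase, named after its values were seen, with 13.4, 4.51 and 9.66 CPM in label 2 in the larger and smaller E14.5 samples and at E15.5 and a log2 ratio between -2.42 and -1.38. Among genes with at least 50 CPM in every label 2 sum, the nearest to being higher was Lsg1, a GTPase of ribosome export, whose log2 ratio lay between 0.46 and 2.12, and among neuronal genes Dscam, an adhesion molecule, lay between 0.28 and 0.84. Gas7, a protein of neurite outgrowth, lay between -2.46 and -0.50, and Syt1, the calcium sensor of synaptic vesicles, between -2.39 and -0.26.

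Against label 11 alone, 31 of 5384 genes (0.576%) were at least 2-fold higher in label 2 in all 3 shared samples and 86 (1.6%) were lower. Higher in label 2 were Flrt3, a guidance and adhesion protein (log2 ratio 3.103 to 3.326), Lhx2, a LIM homeodomain factor (2.29 to 2.89), Plxna4, a semaphorin co-receptor (2.08 to 3.40), and Nkain3 (1.64 to 2.03). Lower were Hs3st4, a heparan sulfate sulfotransferase (-3.64 to -3.17), Kitl, the ligand of Kit (-2.95 to -2.64), Vcan, the matrix proteoglycan versican (-2.82 to -2.31), and Sybu, a kinesin adaptor (-4.09 to -2.29). Kit and its ligand thus both had lower levels in label 2 than in label 11 in these samples.

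Against label 5, 9 of 5700 genes (0.158%) were higher in label 2 in all 3 samples and 22 (0.386%) lower. Lpl, lipoprotein lipase (1.80 to 2.19), Marc2 (1.13 to 1.42), Vim, the intermediate filament vimentin (1.02 to 1.53), and Bcl11b (1.0005 to 1.992) were higher. Gucy1a3, a guanylate cyclase subunit (-4.15 to -2.54), Nefl, neurofilament light chain (-4.69 to -2.15), Fam19a2 (-2.90 to -2.09) and Pdzrn3 (-4.19 to -1.69) were lower.

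Against label 9, which had enough cells in 2 samples only, 63 of 5100 genes (1.24%) were higher in label 2 and 128 (2.51%) lower. Robo2, a Slit receptor (2.98 to 3.38), Ndrg1 (2.73 to 3.31) and Ldb2, a LIM domain binding cofactor of layer 5 neurons (2.38 to 2.91), were higher. Zbtb20, a zinc finger factor (-4.94 to -4.60), Crym, a thyroid hormone binding protein (-6.01 to -4.23), Calb2, calretinin (-4.43 to -3.84), and Tmem159 (-3.97 to -3.48) were lower. Crym was at 508 and 629 CPM in label 9 against 22.4 and 4.83 CPM in label 2.

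Against label 0, which shared all 4 samples, 77 of 5501 genes (1.4%) were higher in label 2 and 70 (1.27%) lower. Cdh13 (2.99 to 3.44), Nin, the centrosomal protein ninein (2.953 to 3.998), Lrfn5, a synaptic adhesion protein (2.59 to 3.56), and Lpl (2.51 to 4.68) were higher. Eomes, the factor that defines intermediate progenitors (-6.17 to -3.69), Mfap4 (-4.68 to -2.76), Nhlh2, a factor of newborn neurons (-3.96 to -2.46), and Zbtb20 (-2.80 to -2.39) were lower.

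Within single cells, the deep-layer factors Bcl11b, Sox5 and Fezf2 were detected in more label 2 cells than progenitors. This too is a description, because the labels were built from these same counts. Cells were thinned to 1000 UMIs, which left 273, 451, 46 and 58 label 2 cells and set aside 40, 101, 3 and 24 shallower ones. Bcl11b was then found in 56.4%, 62.7%, 47.8% and 62.1% of label 2 cells, against 5.43%, 4.48%, 2.198% and 0.781% of cells of the progenitor labels 1, 3, 6, 10 and 12. Without thinning these label 2 shares were 74.8% for E12.5, 79.2% for the larger and 87.8% for the smaller E14.5 sample, and 71.1% in the smaller E14.5 sample at 1500 UMIs. Before thinning, the kept cells of the larger E14.5 sample had a median of 2020 UMIs in label 2 and 2168.5 in the progenitors.

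Sox5 was found in 47.6%, 64.5%, 56.5% and 41.4% of thinned label 2 cells, against 5.47% to 16.5% of progenitors. Fezf2 was found in 28.9%, 46.3%, 37.0% and 41.4%, with a progenitor share near 12% in each sample (11.7%, 12.7%, 12.1% and 11.7%), and early progenitors are known to express it too. Tbr1 was found in 29.3%, 21.5%, 13.04% and 5.17% of label 2 cells, and in at most 1.10% of progenitors. Islr2, Kit and Cabp1 had their lowest shares at E15.5, with 18.97%, 1.72% and 1.72%, where 1.72% is 1 of 58 cells. Tle4, a corepressor of layer 6 neurons, was found in 3.66% to 8.62% of label 2 cells and in 5.35% to 8.59% of progenitors, so that label 2 did not stand above the progenitors. Neurod1, a factor of newborn neurons, was found in 26.0% of label 2 cells at E12.5 and in 7.54%, 15.2% and 8.62% later.

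**Figure D3:**
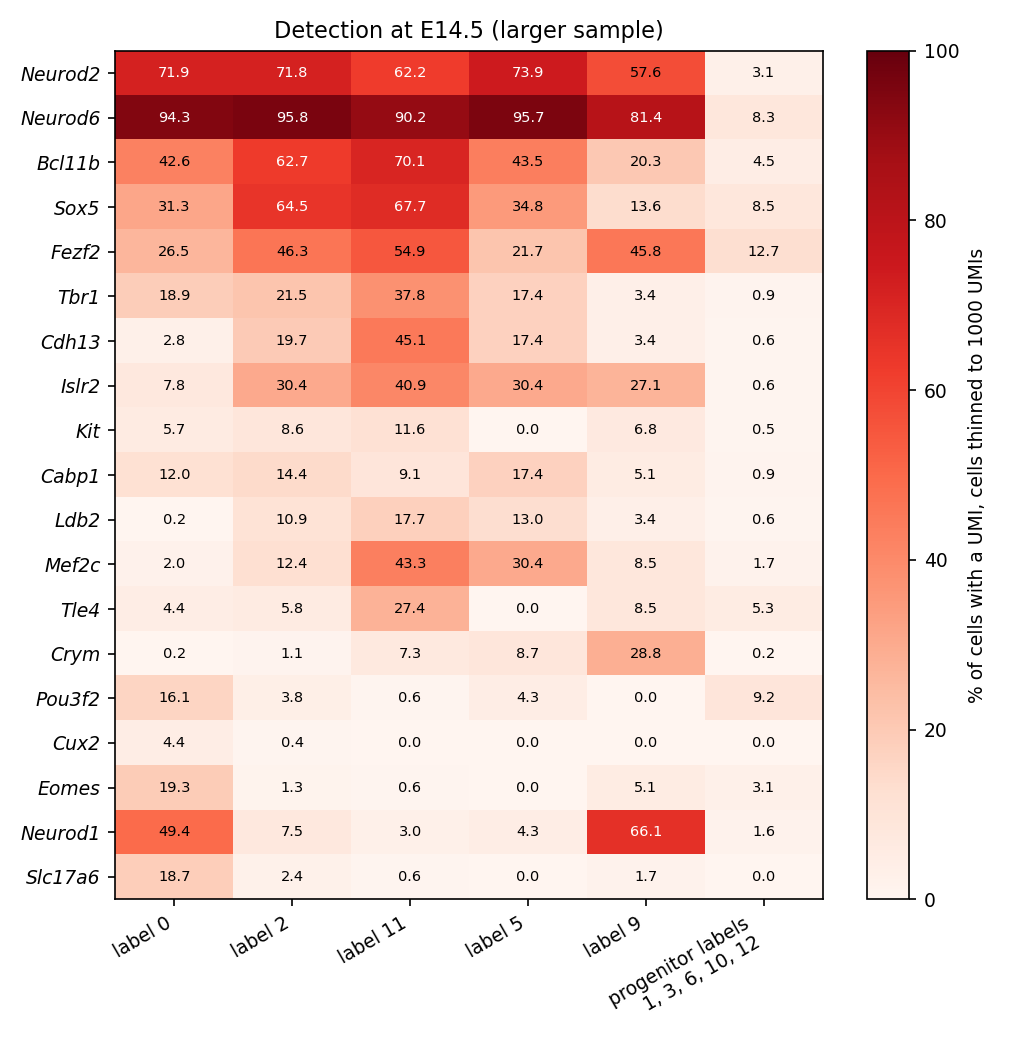
Percentage of cells with a UMI of each identity gene in the larger E14.5 sample after thinning to 1000 UMIs, in labels 0 (540 cells), 2 (451), 11 (164), 5 (23) and 9 (59) and in the progenitor labels (804). Labels 2 and 11 both have Bcl11b and Sox5 in over 60% of cells, and label 2 has fewer cells with Cdh13 (19.7% against 45.1%), Mef2c (12.4% against 43.3%) and Tle4 (5.76% against 27.4%).

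The next question was how label 2 cells of later embryos differ from those of earlier ones. The 4 sums were fitted with a slope on embryonic day, where a slope of 1 is a doubling per day, by edgeR's quasi-likelihood test over 7006 genes with Benjamini-Hochberg adjustment. At an adjusted p under 0.05, 46 genes rose (0.657%) and 39 fell (0.557%), and the median slope of all genes was 0.00166. Genes that rose included the guidance receptors Nrp1 and Robo1 and the transcription factors Pou3f2, Pou3f3 and Nfix, and genes that fell included Tbr1 and several synaptic genes. Of the genes that rose, 33 of 46 kept their order over the 3 stages, with both E14.5 samples between the others. Of those that fell, 23 of 39 did. Over all 7006 genes these counts were 640 (rising) and 821 (falling). The order was read in the same sums that gave the calls. Called genes were therefore bound to keep it more often, and these counts are a description only.

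The counts depended on single samples. Without E12.5, 15 genes rose and 6 fell, without the larger E14.5 sample 28 and 13, without the smaller E14.5 sample 8 and 3, and without E15.5 68 and 76. Without E12.5, 76 of the 85 genes were tested, 68 of these kept their direction and 6 stayed called. The 11 genes that stayed called without the smaller E14.5 sample were Chl1, Nap1l5, Nr4a3, Nrp1, Ntm, Ptprz1, Rpl26 and Sla, and Cntnap2, Ndn and Plxna4, some of them named here after their values were seen. DESeq2 called 22 rises and 6 falls, all 28 among the 85, and the 85 genes had the same direction in both tools. Of the 37 called genes picked by the rule for naming, DESeq2 called 18. It left 19 uncalled, including Robo1, Ldb2, Grin2b and Kcnq3.

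Promoters are shown for the gene with the smallest p-value in each direction among those with a single listed window, as examples of the windows searched for motifs, as RefSeq gives them for GRCm38.p6 from 250 bases before to 50 bases after the gene's start, 5′ to 3′. RefSeq's starts lie inside the GENCODE gene spans given below for both genes. Capitals mark TGGCA or its reverse complement TGCCA, the half-site of NFI factors.
Nrp1, chr8:128358823-128359122, plus strand: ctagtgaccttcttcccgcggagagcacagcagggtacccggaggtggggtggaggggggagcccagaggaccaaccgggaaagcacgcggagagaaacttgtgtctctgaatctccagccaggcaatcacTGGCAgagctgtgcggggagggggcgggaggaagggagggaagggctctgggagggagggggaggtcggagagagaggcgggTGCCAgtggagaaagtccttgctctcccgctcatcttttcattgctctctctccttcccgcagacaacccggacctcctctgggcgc
Ndn, chr7:62348027-62348326, plus strand: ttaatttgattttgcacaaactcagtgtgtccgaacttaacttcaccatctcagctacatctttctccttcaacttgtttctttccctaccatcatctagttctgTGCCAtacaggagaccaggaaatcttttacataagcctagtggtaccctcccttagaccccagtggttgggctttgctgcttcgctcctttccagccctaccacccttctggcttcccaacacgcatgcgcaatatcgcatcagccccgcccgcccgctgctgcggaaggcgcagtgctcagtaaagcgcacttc
The Nrp1 window held 2 matches and the Ndn window 1, on either strand and without overlap. Of the genes that rose, 28 of 46 had a window and 15 of these (53.6%) held the half-site, as did 13 of 24 windows (54.2%) of genes that fell and 48.7% of all 27025 windows. CAGATG or CATCTG, an E-box bound by neuronal bHLH factors, was in 3 of 28 windows (10.7%) of genes that rose, in 4 of 24 (16.7%) of genes that fell and in 17.2% of all windows. These letters describe the windows and are not evidence of binding.

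Among the genes that rose, the receptor Nrp1 (chr8:128358604-128503363, plus strand), which binds class 3 semaphorins and guides axons, was at 32.3, 174, 257 and 459 CPM in label 2. It was lowest at E12.5 and highest at E15.5, with both E14.5 samples between (slope 1.29 ± 0.15 SE, adjusted p = 3.1e-06 by edgeR). Robo1, a Slit receptor, was at 44.0, 144, 117 and 179 CPM (0.71 ± 0.15, adjusted p = 0.00796 by edgeR). Plxna4, a partner of neuropilins in semaphorin signalling, went the other way with 303, 89.7, 90.2 and 57.9 CPM (-0.85 ± 0.13, adjusted p = 0.000173 by edgeR). E12.5 stood apart from the 3 later samples in each of these receptors. Of 38 axon guidance genes 25 were tested, and their median slope was -0.0023. Of these, 2 rose, 1 fell and 22 did not pass, where 0.657% of all tested genes rose and 0.557% fell.

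Adhesion molecules changed in both directions. Ntm, neurotrimin, was at 22.0, 207, 171 and 377 CPM in label 2, and its relative Opcml, also of the IgLON family, at 2.59, 34.1, 81.2 and 48.3 CPM. Pcdh8, a protocadherin, was at 11.6, 30.5, 126 and 135 CPM. These 3 rose (slopes 1.38, 1.28 and 1.19), although for Opcml the smaller E14.5 sample was above E15.5. Cntnap2, a contactin partner that clusters potassium channels, was at 544, 130, 131 and 101 CPM and fell (-0.92 ± 0.12, adjusted p = 2.9e-05 by edgeR). The protocadherins Pcdh9, at 251, 95.9, 54.1 and 57.9 CPM, and Pcdh19, at 85.4, 35.9, 22.6 and 9.66 CPM, fell as well (-0.77 and -0.81). Of 30 adhesion genes 17 were tested, with a median slope of 0.076. Of these, 2 rose, 3 fell and 12 did not pass, where 0.657% of all tested genes rose and 0.557% fell. Ntm is not in the adhesion list and is given as one of the 10 steepest rises.

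Among transcription factors that are used over developmental time, all calls were rises. Of 31 such factors 26 were tested, 5 rose and none fell, where 0.657% of all tested genes rose and 0.557% fell. Of the 26 slopes 23 were above 0, with a median of 0.17 against 0.00166 over all genes. The list was chosen with earlier results of these data known. Pou3f2 (BRN2), known for upper-layer neurons and late progenitors, was at 6.47, 34.1, 72.2 and 101 CPM (1.32 ± 0.25, adjusted p = 0.00223 by edgeR). Its relative Pou3f3 (BRN1) was at 54.3, 90.6, 158 and 367 CPM (0.88 ± 0.16, adjusted p = 0.00127 by edgeR). Both POU factors were lowest at E12.5 and highest at E15.5, and the smaller E14.5 sample lay above the larger one. Nfix, a nuclear factor I protein, was at 261, 1097, 1426 and 1265 CPM, and Hivep2, a zinc finger factor, at 28.5, 130, 158 and 169 CPM (slopes 0.85 and 0.91). For these 2 the step lay between E12.5 and the other samples. The fifth was Zbtb20 with a slope of 0.73, named because it completes the count. Nfia (-0.11) and Nfib (0.10), relatives of Nfix, did not pass.

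Layer identity genes gave calls in both directions, where 0.657% of all tested genes rose and 0.557% fell. Of 13 layer 5 genes in the files 10 were tested, and Lmo7 and Ldb2 rose. Lmo7, a LIM domain protein of the actin cortex, had no UMI at E12.5, which allows up to 3.88 CPM, and was at 42.1, 63.2 and 96.6 CPM later. Its slope was 1.89 by edgeR and 2.22 by DESeq2, and its size is uncertain because of that 0. Ldb2 was at 25.9, 121, 58.7 and 111 CPM (0.76 ± 0.19, adjusted p = 0.0271 by edgeR), with E12.5 below the others. Of 14 layer 6 genes 9 were tested and Tbr1 fell, from 429 CPM at E12.5 over 232 and 217 CPM to 86.9 CPM at E15.5 (-0.63 ± 0.13, adjusted p = 0.00465 by edgeR). Tbr1 kept the order of the stages in level and, as given above, in its share of cells.

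Of 13 subplate genes in the files only 3 were expressed enough for the test, and St18, a zinc finger factor of the Myt family, fell (133, 61.9, 27.1 and 9.66 CPM; slope -0.85). Of 18 upper-layer genes 13 were tested, and Pou3f2 and Pou3f3 rose. Cited2, a transcriptional cofactor of callosal neurons, fell (291, 119, 140 and 82.1 CPM; slope -0.61). Of 18 newborn neuron genes 13 were tested and Rnd2, a small GTPase of migrating neurons, fell (275, 204, 108 and 38.6 CPM; slope -0.61). Fezf2 (0.21), Bcl11b (0.16), Sox5 (0.07) and Tle4 (0.33) did not pass. Beside these list counts, 0.657% of all tested genes rose and 0.557% fell.

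Genes of the presynaptic terminal had no common direction, although their 4 calls were all falls. Of 21 such genes 18 were tested, 4 fell and none rose, where 0.557% of all tested genes fell and 0.657% rose. Of the 18 slopes 9 were above 0, and the median slope was 0.00037. Syn2, synapsin 2, was at 134, 26.0, 13.5 and 19.3 CPM (-1.18 ± 0.19, adjusted p = 0.000289 by edgeR). Syt4, a synaptotagmin, was at 693, 225, 257 and 246 CPM (-0.58 ± 0.12, adjusted p = 0.00546 by edgeR). In both genes E12.5 was above every later sample, and the later samples had no common direction. Without E12.5 the slope of Syt4 was 0.17 and not called. DESeq2 called neither of these genes.

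Of 28 cytoskeletal and pan-neuronal genes 27 were tested, and 2 fell, where 0.557% of all tested genes fell and 0.657% rose. Nefl, neurofilament light chain, was at 84.1, 14.3, 0 and 24.1 CPM, where 0 in the smaller E14.5 sample allows up to 13.5 CPM. Rbfox3 (NeuN), a splicing factor of maturing neurons, was at 301, 162, 149 and 91.7 CPM (-0.53 ± 0.12, adjusted p = 0.0177 by edgeR). Postsynaptic and membrane genes gave single rises: Grin2b, an NMDA receptor subunit, at 44.0, 99.5, 144 and 193 CPM (0.71), Kcnq3, an M-type potassium channel subunit, at 133, 262, 307 and 357 CPM (0.49), and Fgfr1, a fibroblast growth factor receptor, at 40.1, 109, 126 and 169 CPM (0.71). All 3 were lowest at E12.5 and highest at E15.5. No gene passed by edgeR or DESeq2 among 12 tested glycolysis genes, 18 tested cholesterol synthesis genes and 7 tested early-stage genes, of which 0, 2 and 1 had an unadjusted p under 0.05 in edgeR.

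**Figure D4:**
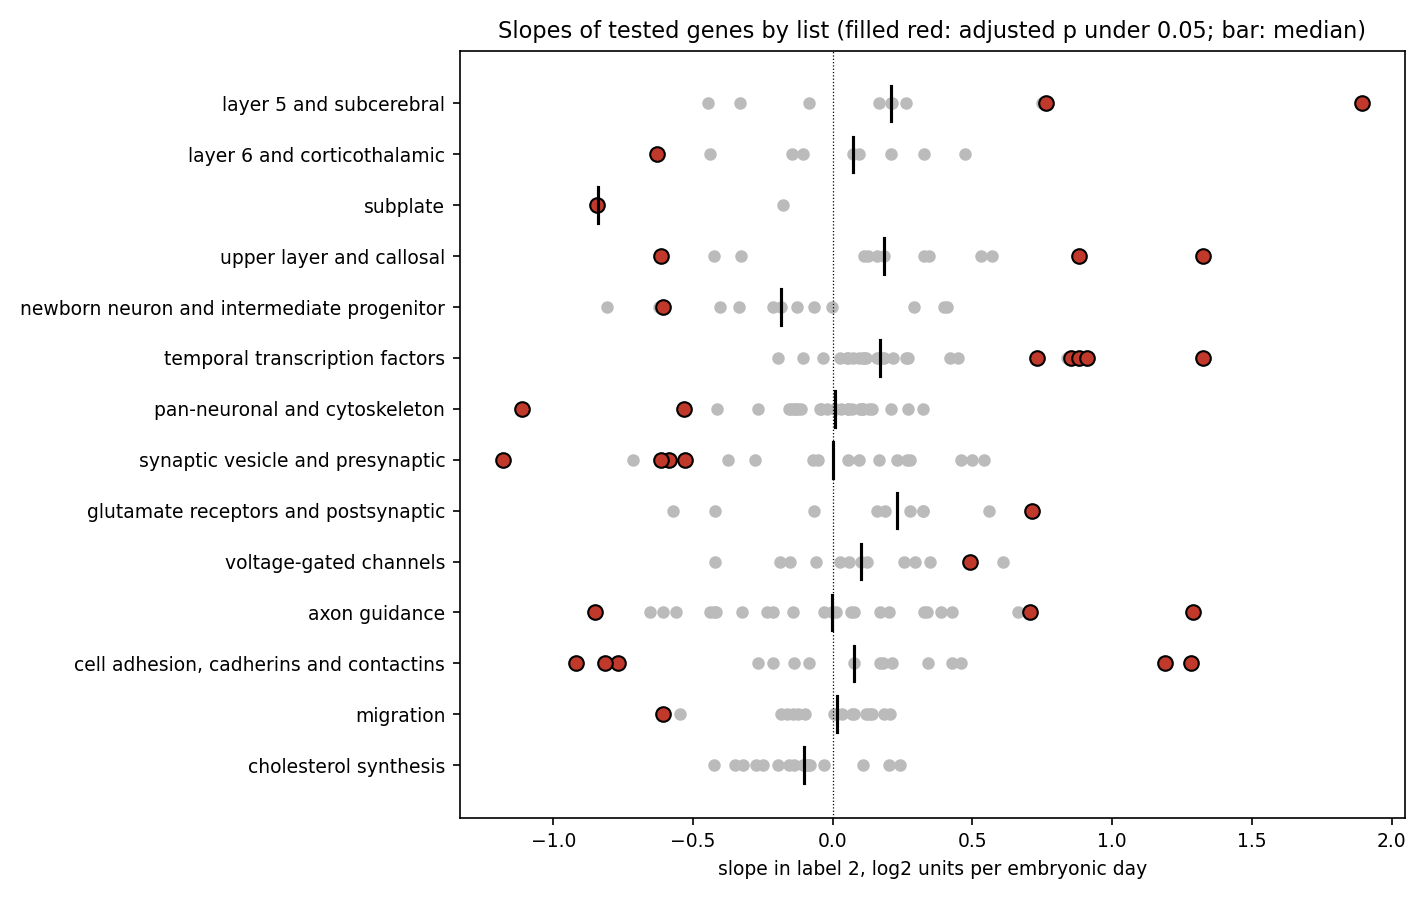
Slope in label 2 in log2 units per embryonic day of each tested gene of 14 gene lists, with called genes in red and the list median as a bar. Calls lie on both sides in axon guidance and adhesion, only above 0 among the 26 temporal transcription factors and only below 0 among the 18 presynaptic genes.

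The other steep rises had other functions. Sla, an adaptor of receptor signalling, was at 2.59, 42.1, 108 and 140 CPM (1.74 ± 0.27, adjusted p = 0.000173 by edgeR). Nr4a3, an orphan nuclear receptor, was at 7.76, 56.5, 122 and 169 CPM (1.47). Nap1l5, an imprinted gene of the nucleosome assembly protein family, was at 7.76, 105, 113 and 183 CPM (1.47), and lies within another gene, so that its reads can be uncertain because the counted strand was not given. All 3 rose with every stage. Ezr, the membrane linker ezrin, was at 10.3, 94.1, 131 and 111 CPM, and Msra, a methionine sulfoxide reductase, at 6.47, 97.7, 158 and 116 CPM. For these 2 the smaller E14.5 sample was above E15.5.

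Among the falls, Ndn (chr7:62346569-62350262, plus strand), necdin, an imprinted protein of postmitotic neurons, was at 999.7 CPM at E12.5 and at 248, 190 and 140 CPM later (-1.01 ± 0.12, adjusted p = 3.5e-06 by edgeR). Its E12.5 level was over every later one, and E15.5 was the lowest. Ppp1r14c, a phosphatase inhibitor, was at 140, 18.8, 27.1 and 19.3 CPM, and Rwdd3, an enhancer of SUMO conjugation, at 189, 43.0, 63.2 and 33.8 CPM (slopes -1.25 and -0.93). Both were highest at E12.5, and only Rwdd3 was lower at E15.5 than in both E14.5 samples. Tmem176b, a membrane protein, was at 140, 81.6, 31.6 and 4.83 CPM, Lcorl, a nuclear corepressor relative, at 356, 155, 76.7 and 77.2 CPM and Prdx6, a peroxiredoxin, at 125, 51.1, 54.1 and 24.1 CPM (slopes -0.77, -0.75 and -0.71). Tmem176b at E15.5 was a single UMI.

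**Figure D5:**
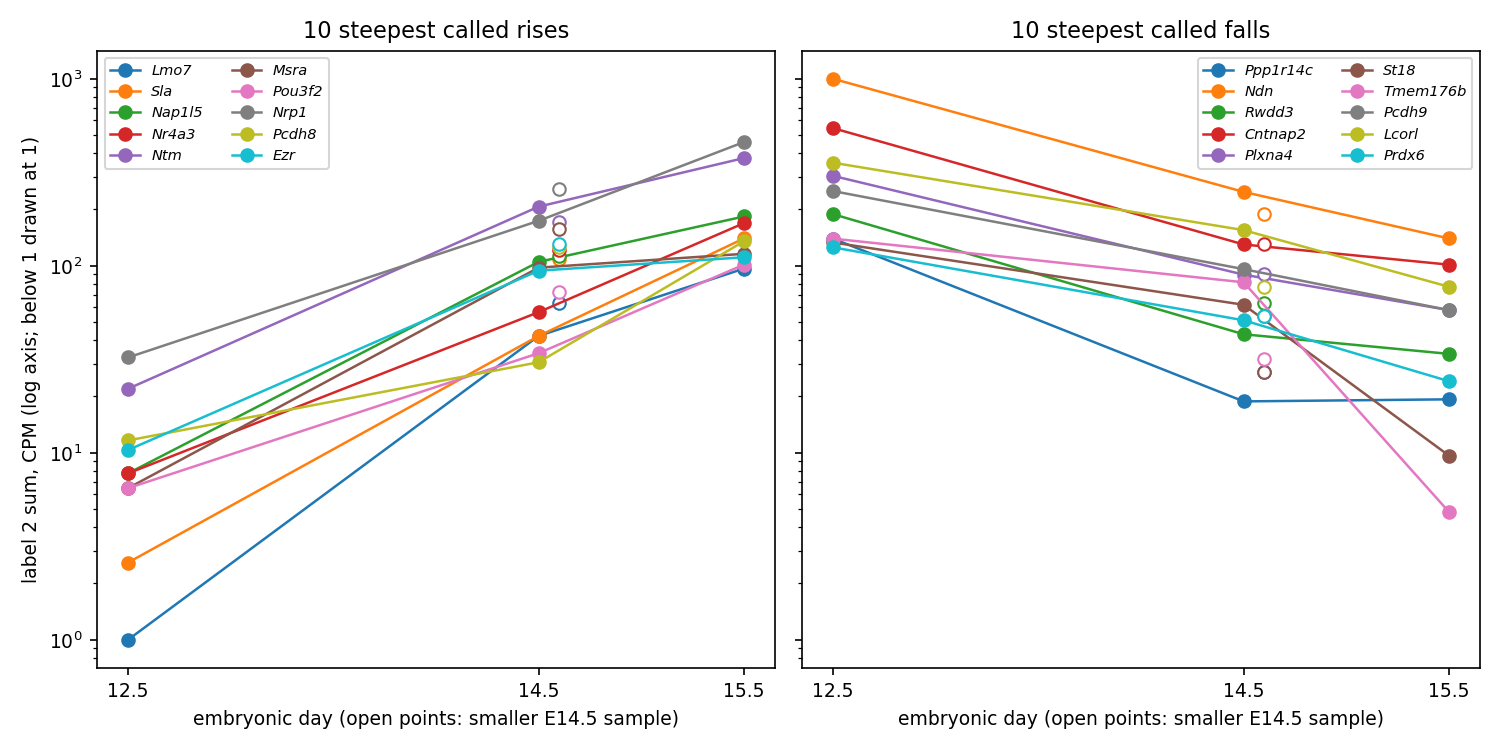
Level in CPM (log axis) of the 10 steepest called rises and falls in the label 2 sums against embryonic day, with the smaller E14.5 sample as open points set slightly to the right. The rises start between 0 and 32.3 CPM at E12.5 and reach 96.6 CPM or more at E15.5, and Ndn drops from 999.7 to 140 CPM.

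Whether these slopes differ from those of other neurons was tested with the interaction of label and day, comparing label 2 with the summed cells of labels 5, 9 and 11 within each sample. Of 8570 genes, 6 had a higher slope in label 2 (0.07%) and 10 a lower one (0.117%) at an adjusted p under 0.05 by edgeR. Nrp1, Robo1, Pou3f2, Pou3f3, Nfix and Tbr1 were not among them, and moved the same way from E12.5 to E15.5 in the other labels. There Nrp1 went from 9.71 to 683 CPM and Tbr1 from 398 to 127 CPM. The slopes of these genes were thus not shown to be particular to label 2. Bcl11b, at 859, 1135, 871 and 1226 CPM in label 2, was at 1097, 972, 707 and 734 CPM in the other labels. Label 2 was thus below their sum at E12.5 and above it in the 3 later samples (difference of slopes 0.35 ± 0.09, adjusted p = 0.0404 by edgeR). Label 11 alone was above label 2 in each of these 3 later samples, with 1338, 990 and 1415 CPM. Epha4, an ephrin receptor, was at 128, 196, 131 and 82.1 CPM in label 2 against 38.8, 379, 241 and 294 CPM (-1.16 ± 0.22, adjusted p = 0.000617 by edgeR). Neurod1 was at 294, 113, 185 and 150 CPM against 77.6, 497, 334 and 486 CPM (-1.20 ± 0.17, adjusted p = 1.2e-07 by edgeR). For Epha4 and Neurod1, label 2 was above the other labels at E12.5, where the other labels had few UMIs, and below them later.

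The other labels were scarce at E12.5, with 11 cells of label 5, 3 of label 9 and 14 of label 11, and their mixture changed to 133, 91 and 122 cells at E15.5. Pcp4, a calmodulin regulator, was at 166, 158, 126 and 14.5 CPM in label 2 against 9.71, 45.0, 91.3 and 71.4 CPM, where 9.71 CPM was 1 UMI (-2.75 ± 0.47, adjusted p = 7.2e-05 by edgeR). Flrt1, an adhesion protein, and Rhobtb3 were also at 1 UMI in the other labels at E12.5. On that scale the 38.8 CPM of Epha4 and the 77.6 CPM of Neurod1 there rest on few UMIs as well. No difference was called by DESeq2, which had 145 genes at an unadjusted p under 0.05, nor without the sample as a block, with 253 such genes in edgeR. Leaving out E12.5, the larger E14.5, the smaller E14.5 or the E15.5 sample gave 4, 8, 9 and 2 higher and 1, 11, 18 and 6 lower slopes.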

How the data were processed

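Dorsal forebrain cells of 7 samples were profiled by Drop-seq. The authors deposited counts, whole numbers of UMIs for 21862 genes in 10261 cells, with the library and cluster label of every cell. Per the submitters' processing notes, Drop-Seq tools 3.1, Seurat 3.1.5 and the mm10 build were used; the aligner, annotation and counted strand are not given in the sources used here. 1 library of the larger E14.5 sample was assigned by inference from its name. That name shares its prefix with the only library of the smaller E14.5 sample. Whether these samples share a preparation is not known here. Samples held 387 to 3235 cells and 1519473 to 6638760 UMIs.

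Counts were summed per label and sample (at least 20 cells) and fitted by the two-sided quasi-likelihood test of edgeR 4.0.16 (R 4.3.3), after filterByExpr and TMM scaling, with Benjamini-Hochberg adjustment and a threshold of 0.05. Slopes used embryonic day; the difference of slopes kept the sample as a block. The fits were tested on simulated data. Levels are CPM over plain totals. Doublets were called with Scrublet (scanpy 1.11.5) per library at an expected rate of 5% and kept. DESeq2 1.42.0 was an alternative. The label, markers and gene lists were chosen with earlier results of these data known. Genes named are the 10 steepest called slopes per direction with a mean of at least 50 CPM (6 for differences of slopes), up to 4 called list members per direction, the markers and fixed identity genes, and the genes of most extreme ratio between labels, leaving out mitochondrial, ribosomal, haemoglobin and sex-linked genes and unnamed models. Results for some genes of this rule are not reported here.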

Additional observations from a re-analysis of the deposited data

Results flagged for a closer look

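These 11 genes had a slope on day in label 2 that differed from that of the summed labels 5, 9 and 11 by the interaction term in edgeR, with the differences in log2 units per day. The difference was 0.77 for Mapk10, a stress-activated kinase, which was at 94.4, 95.04, 117 and 198 CPM in label 2 at E12.5, in the larger and the smaller E14.5 sample and at E15.5, against 233, 136, 107 and 87.3 CPM in the other labels. It was 0.47 for Ly6h, 0.45 for Tubb2a, whose reads can be shared with its near-identical relative Tubb2b, 0.35 for Bcl11b and 0.30 for Nnat, neuronatin. Nnat was at 5584, 2809, 3100 and 3268 CPM in label 2 against 8143, 3563, 3004 and 2317 CPM. In these 5 genes label 2 was lower than the other labels at E12.5, and the gap was smaller or turned around at E15.5.

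The difference was -2.75 for Pcp4, -2.07 for Flrt1, -1.27 for Rhobtb3, -1.20 for Neurod1, -1.16 for Epha4 and -0.61 for Ttc28. In these 6 genes label 2 was higher than the other labels at E12.5 and lower at E15.5. The part of the change in the mixture of labels 5, 9 and 11 in these differences was not tested as such; against label 11 alone, without E12.5, Neurod1 had a difference of 0.79.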

How the results depend on the processing

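Counts of genes that rose and fell in label 2 (46 and 39) ranged from 8 to 68 and from 3 to 76 with 1 sample left out, which also changes the genes tested. They were 22 and 6 with DESeq2, 21 and 13 with libraries of suffix 2 only, 8 and 3 with at least 50 cells (which drops the smaller E14.5 sample) and 30 and 25 with the rank of the stage. Without the library assigned by inference, chosen after seeing the data, they were 23 and 13. Falls were 75 without a low count filter, 60 with cells of at most 5% mitochondrial UMIs (which also drops E15.5, left with 15 cells) and 19 with libraries of suffix 1 only (which also drops the smaller E14.5 sample). For differences of slopes (6 higher, 10 lower) the ranges with 1 sample left out were 2 to 9 and 1 to 18. These counts were 0 and 0 with DESeq2 and with no sample block, 0 and 0 also with suffix 2 only and against label 5 alone, both of which lack E12.5 as well, 1 and 5 with at most 5% mitochondrial UMIs, again without E15.5, and 27 and 41 against label 0 alone; against label 11 alone, without E12.5, 2 were lower. Suffix 1, at least 50 cells and label 9 alone could not be fitted for differences. Plain totals, also added after seeing the data, moved no count by over 1.5 times.

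Sign changes were seen for Ly6h (-0.16), Tubb2a (-0.22) and Nnat (-0.066) against label 0 alone, for Bcl11b (-0.15) and Neurod1 (0.26) with suffix 2 only (a fit that also lacks E12.5), for Neurod1 without E12.5 (0.033) and against label 11 alone (0.79), and without E12.5 for Syt4 (0.17). Over all left-out samples Neurod1 ranged from -1.86 to 0.033 and Syt4 from -0.82 to 0.17. The cause was not tested.

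With 1 sample left out, r of the share of label 2 in the 4 neuron labels ranged from -0.93 to -0.79 and rho from -1 to -0.97, and for all cells r ranged from -0.79 to 0.15 and rho from -0.90 to -0.029. Without E10.5 that rho was -0.90, with an adjusted exact p of 0.0278.

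At 3-fold, 26 and 22 genes were higher and lower in label 2 than in label 0, 1 and 6 than in label 5, 24 and 59 than in label 9, and 6 and 33 than in label 11. With 1 CPM added, 15 and 38 differed from label 5. With suffix 1 only, 459 and 456 differed from label 5 (1 sample left), 111 were higher than in label 9, and 87 and 132 differed from label 11. With suffix 2 only, 69 and 86 differed from label 5, and 110 and 217 from label 9. Bcl11b was detected in 74.8%, 79.2% and 87.8% of cells without thinning at E12.5 and in the larger and smaller E14.5 samples, and in 67.3%, 77.7% and 71.1% at 1500 UMIs. No paired analysis was possible because the stages are different embryos and only E14.5 has a second replicate number. Sums of 49 and 82 cells limit what could be detected at low levels.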

Other observations

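Pairs of identity genes were counted in the same thinned label 2 cells of the larger E14.5 sample, where 451 cells were left. Bcl11b and Tbr1 were both found in 64 cells, where the product of their shares gives 60.9 (such products follow in parentheses), Fezf2 and Tbr1 in 50 (45.0), and Bcl11b and Sox5 in 185 (183). At E12.5, with 273 cells, Bcl11b and Tbr1 were both found in 50 cells (45.1), and Fezf2 and Tbr1 in 19 (23.2). These counts are descriptions, since a thinned cell shows only part of its mRNA.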
